A study of Homo sapiens with 12 samples.

Results

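The proteasome genes were taken by symbol, as every gene with a name starting PSMA, PSMB, PSMC, PSMD, PSME, PSMF or PSMG followed by a digit, on a probe set annotated to exactly 1 gene. This gave 50 genes on 97 probe sets, out of 19775 genes on 41091 probe sets in the series, and where a gene had several probe sets the brightest by its mean on the 12 arrays was used. By name, 42 of the 50 code for a subunit, cap, inhibitor or assembly chaperone of the proteasome, and the other 8 share only the letters and are described apart. Of the 42, 41 were over the floor on low values (a log2 value over 4 on at least 3 of the 12 arrays) and were tested. The exception was PSMA8, the alpha subunit of the testis, which lay between 2.97 and 3.14 on the arrays. PSMA6 and PSME2 are present only on probe sets that also name another gene, and PSMC5, PSMD7, PSMD13 and PSMB11 were not analysed here.

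HK-2 is an immortalised line of human renal proximal tubular epithelial cells, seeded in 6-well plates and treated shortly before confluency. The 4 groups were HK-2 cells given a high dose of a compound labelled Aa for 24 h, their vehicle controls at 24 h, and the same pair at 48 h, each with 3 samples labelled as biological replicates. Neither what Aa stands for nor its dose is given in the labels. The series design places Aa in a larger set of compounds assayed for signatures of nephrotoxicity. Since the model is a single cell line, p-values measure the spread between its cultures, and in RNA from whole cultures fewer cells and less RNA per cell cannot be told apart.

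The proteasome degrades proteins that carry ubiquitin chains. Its barrel-shaped core particle is built of outer alpha rings, which gate the entrance, and inner beta rings, which hold the proteolytic sites, and the 19S cap recognises, deubiquitinates, unfolds and feeds in the substrate. Cells exposed to interferon can replace the catalytic beta subunits by the immunoproteasome subunits, which favour peptides for presentation on MHC class I, and dedicated chaperones assemble both core and cap.

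Array medians lay between 2.91 and 3.02 on the log2 scale, below the floor of 4. The submitters' processing by GCRMA gives arrays nearly the same distribution, so these medians cannot show whether overall signal was alike. Replicates of a group correlated at r between 0.994 and 0.997 across probe sets. The difference between 3-prime and 5-prime probe sets of ACTB and GAPDH, a measure of RNA quality, averaged 0.306 and 0.319 in the controls at 24 h and 48 h and 0.394 and 0.542 with Aa. The spiked hybridisation controls averaged 10.6 and 11 in the controls and 10.9 and 11.4 with Aa. The part of either measure in the changes below was not tested. All 5 epithelial markers listed were over the floor, whereas 1 of 10 proximal tubule markers with a probe set was (PAX8), so transporters and brush-border genes that define the tubule segment, such as LRP2, CUBN and AQP1, were not over the floor. Of the epithelial markers, 0 were higher and 3 lower at 24 h, and 1 was higher and 3 lower at 48 h, and their part in the results was not tested. Of markers of other cells, 1 of 7 leukocyte genes (CD74), 0 of 4 endothelial genes and 3 of 4 fibroblast genes were over the floor.

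In the main fit, which did not pair the arrays, proteasome genes passed the test less often than all genes at 24 h and at 48 h. At 48 h 29.3% of them rose in that fit, near the share of all genes, and 14.6% fell, below that share. At 24 h, 4 of the 41 subunit, cap, inhibitor and assembly genes were higher with Aa and 2 were lower by limma at an adjusted p under 0.05, or 14.6% of them, against 49.1% of the 11184 genes tested (26.3% higher and 22.8% lower). Their median log2 change was -0.05 and their range -0.85 to 0.63. At 48 h, 12 were higher and 6 lower, or 43.9%, against 64.5% of all genes (30.6% higher and 33.9% lower), with a median of 0.15 and a range of -1.35 to 0.87. The median of the 41 genes lay 0.07 below that of all tested genes at 24 h and 0.18 above it at 48 h. Over the 12 arrays, the 41 genes had a median level of 12.01 (8.30 to 13.67), against 8.53 (2.78 to 16.08) for all tested genes. Genes were not matched by level, so the part of level in this and the other comparisons with all genes was not tested.

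By the values themselves, the Aa and control arrays did not overlap for 14 of the 41 genes at 24 h and for 21 at 48 h, against 59.8% and 69.1% of all tested genes. Across the times, 3 genes were higher at both (PSMD2, PSMD5 and PSMG3), 1 was lower at both (PSMG1) and 1 went from lower to higher (PSMB10). Of those that did not pass at 24 h, 8 were higher and 5 lower at 48 h. PSMC6 was higher at 24 h and did not pass at 48 h, and 22 genes passed at neither time. The change itself differed between the times for 3 of the 41 genes (PSMB10, PSMD4 and PSMG2), against 19.5% of all tested genes (6.8% upward and 12.7% downward).

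The counts moved with the setting. With the replicate number as a block, 9 of the 41 genes were higher and 6 lower at 24 h, 19 higher and 10 lower at 48 h, and 13 differed between the times, while the share of all genes called rose to 61.5%, 73.3% and 38.6%. At 48 h 35.3% of all genes were then higher and 38% lower. The 41 genes were thus called nearly as often as all genes at 48 h with the block, and rose more often. With the arrays scaled to their hybridisation controls, 0 were higher and 15 lower at 24 h, and 2 were higher and 19 lower at 48 h. Of all 11184 tested genes, 34.5% were then lower at 24 h and 52.7% at 48 h, while 1668 and 1808 were higher. That scaling moved the median of all genes by -0.28 at 24 h and -0.44 at 48 h, and the median of the 41 genes to -0.33 and -0.29. Without Aa replicate 1 or control replicate 1 or 2 of the 24 h arrays, 1 gene was higher at 24 h, and without control replicate 3 at 48 h, 8 genes differed between the times. Directions below are therefore relative to the bulk of genes on the arrays.

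**Figure D1:**
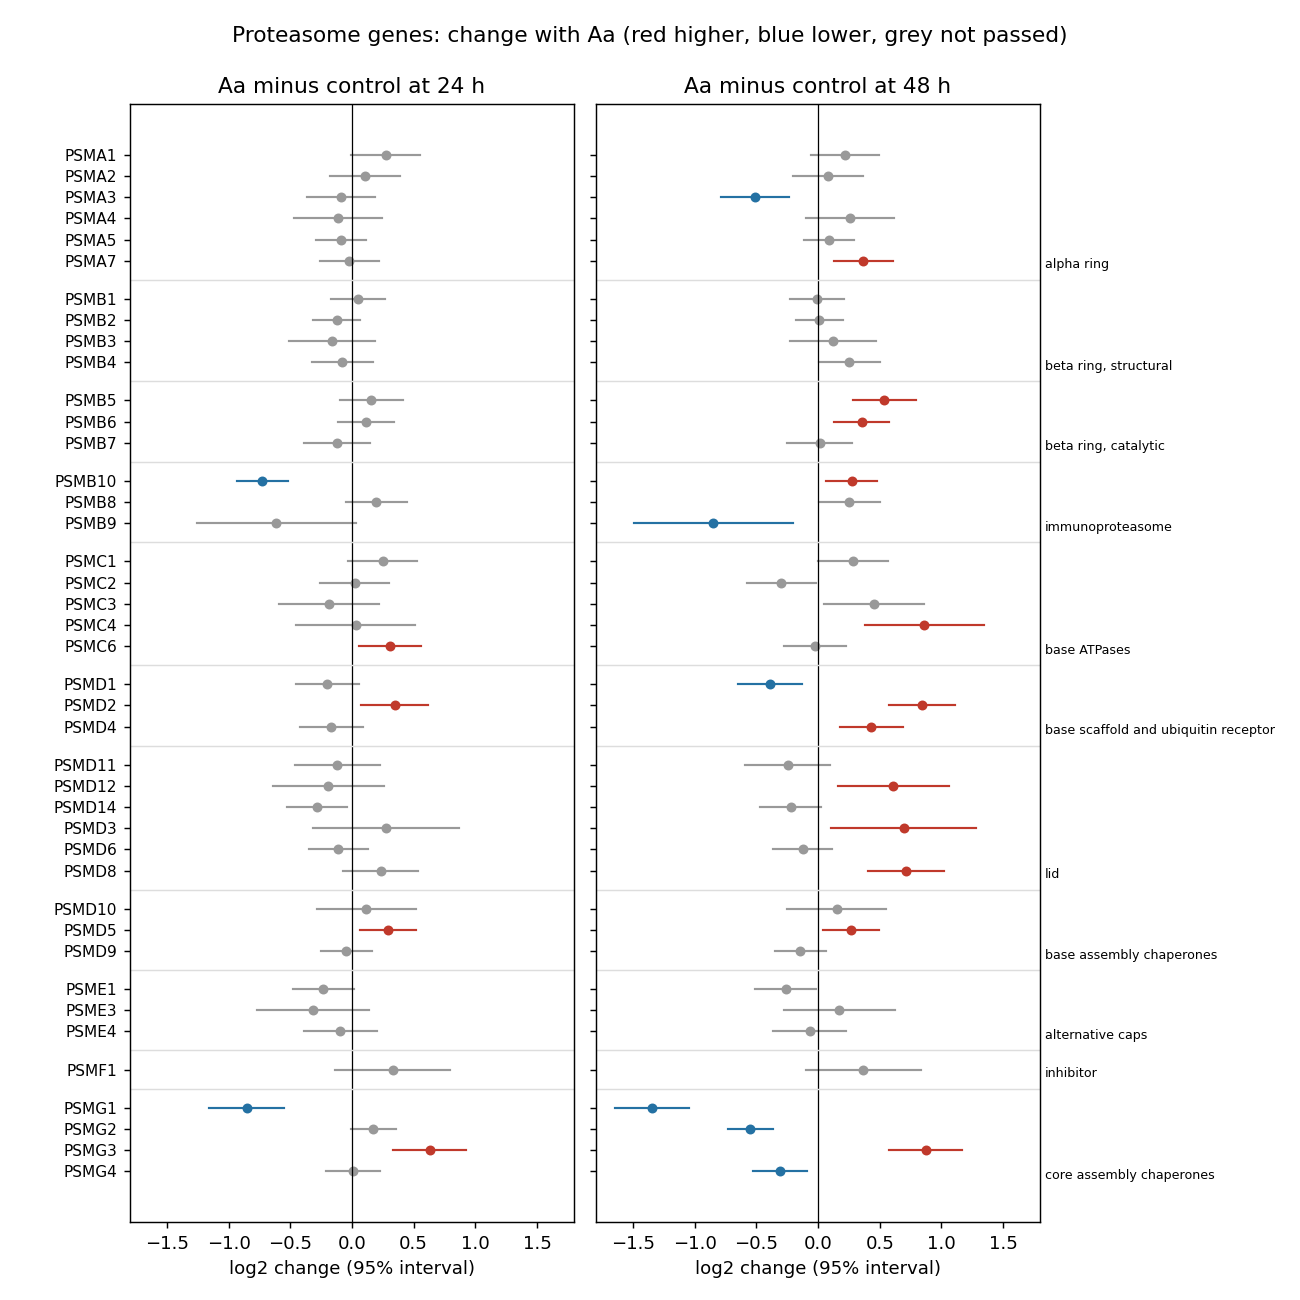
Log2 change (Aa minus control, horizontal axis) of each of the 41 tested proteasome genes at 24 h and 48 h, grouped by class, with 95% confidence intervals, red for genes called higher, blue for genes called lower and grey for genes that did not pass. PSMG1 is the lowest at both times and PSMG3 the highest, and the ATPase, scaffold and lid classes hold 6 of the 12 rises at 48 h.

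The core particle showed no called change at 24 h and a small rise of the catalytic subunits PSMB5 and PSMB6, not called for PSMB7, at 48 h. None of its 13 tested constitutive genes passed at 24 h with limma, 0 had an unadjusted p under 0.05 in either direction, and the 95% intervals of their log2 changes ran from -0.51 to 0.55. At 48 h, 3 were higher and 1 lower, with a median log2 change of 0.12, which became -0.32 under the hybridisation-control scaling. Of all tested genes, 26.3% were higher and 22.8% lower at 24 h, and 30.6% and 33.9% at 48 h. The replicate block added PSMA1 at 24 h, higher by 0.27 (adjusted p = 0.00612).

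PSMB5 carries the chymotrypsin-like site, the main target of clinical proteasome inhibitors. Its log2 values were 12.07, 12.20 and 12.33 in the 24 h controls, 12.36, 12.29 and 12.43 with Aa at 24 h, 11.90, 12.10 and 12.18 in the 48 h controls and 12.44, 12.60 and 12.75 with Aa at 48 h. The groups overlapped at 24 h, and at 48 h each Aa array lay above each control. The log2 change was 0.16 at 24 h (95% interval -0.10 to 0.42, adjusted p = 0.292) and 0.54 at 48 h (SE 0.117, 1.45-fold, adjusted p = 0.00195), which fell to 0.097 under the hybridisation-control scaling and no longer passed (adjusted p = 0.534).

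PSMB6 carries the caspase-like site. It measured 12.32, 12.48 and 12.41 in the 24 h controls, 12.47, 12.53 and 12.56 with Aa at 24 h, 12, 12.20 and 12.29 in the 48 h controls and 12.46, 12.46 and 12.63 with Aa at 48 h. The groups were apart at 48 h, where the log2 change was 0.35 (SE 0.102, 1.28-fold, adjusted p = 0.0103), and it was 0.11 at 24 h (adjusted p = 0.385). The 48 h value turned to -0.086 under the hybridisation-control scaling.

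PSMB7 carries the trypsin-like site. It measured 13.03, 13.26 and 13.33 in the 24 h controls, 12.97, 13.13 and 13.14 with Aa at 24 h, 12.83, 13.06 and 13.20 in the 48 h controls and 12.95, 13.12 and 13.05 with Aa at 48 h. The groups overlapped at both times. Its log2 change was -0.12 at 24 h (95% interval -0.39 to 0.14, adjusted p = 0.429) and 0.01 at 48 h (95% interval -0.25 to 0.28, adjusted p = 0.937). With the mean of its probe sets PSMB7 passed as higher at 48 h. Its other tested probe set, at 4.34 in the 48 h controls and so near the floor, had a 48 h change of 0.75 (adjusted p = 0.00453 by limma over all probe sets).

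Among the 6 alpha-ring genes tested, PSMA7 was higher and PSMA3 lower at 48 h. PSMA7 measured 12.91, 13.00 and 13.16 in the 48 h controls and 13.27, 13.42 and 13.48 with Aa at 48 h, after 13.22, 13.40 and 13.32 in the 24 h controls and 13.14, 13.36 and 13.37 with Aa at 24 h. The groups separated at 48 h and not at 24 h, with a log2 change of 0.37 (SE 0.108, adjusted p = 0.0119) that became -0.075 under the hybridisation-control scaling. PSMA3 moved the other way. It measured 12.23, 12.63 and 12.49 in the 48 h controls and 11.94, 11.96 and 11.92 with Aa at 48 h, where the groups did not overlap, and 12.44, 12.64 and 12.66 against 12.37, 12.67 and 12.44 at 24 h, where they did. The change at 48 h was -0.51 (SE 0.125, adjusted p = 0.00385), and with the mean of its probe sets it no longer passed (adjusted p = 0.0849). PSMA1, PSMA2, PSMA4 and PSMA5 had changes of 0.22, 0.08, 0.26 and 0.09 at 48 h without passing, and the block added PSMA1 (adjusted p = 0.0143) and PSMA4 (adjusted p = 0.0347).

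None of the 4 structural beta subunits passed at either time. At 48 h PSMB4 had a log2 change of 0.25 (SE 0.112, adjusted p = 0.0693, or 0.0223 with the block), and its 3 Aa arrays (13.00, 13.09 and 13.40) lay above the 3 controls (12.86, 12.94 and 12.94). PSMB1, PSMB2 and PSMB3 had changes of -0.01, 0.01 and 0.12, with the groups overlapping. Dimmer probe sets of PSMB2 moved in both directions and are described below.

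Of the 12 rises at 48 h, 6 were in the 19S cap, whose genes are 14 of the 41. Of its 14 tested genes, 2 were higher and 0 lower at 24 h, against 26.3% and 22.8% of all genes (median log2 change -0.04), and 6 were higher and 1 lower at 48 h, against 30.6% and 33.9% (median 0.36, which became -0.085 under the hybridisation-control scaling). With the replicate block, 5 were higher and 1 lower at 24 h, and 8 were higher and 4 lower at 48 h. The count higher at 24 h was 0 without Aa replicate 1 or control replicate 1 or 2 of that time, and the count lower at 48 h was 4 without control replicate 1.

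The base of the cap holds a ring of ATPases that unfolds the substrate, the scaffold proteins PSMD1 and PSMD2, and the ubiquitin receptor PSMD4. PSMD2, which docks the shuttle proteins that deliver substrates, measured 12.30, 12.22 and 12.28 in the 24 h controls and 12.66, 12.48 and 12.70 with Aa at 24 h. At 48 h it measured 11.92, 11.82 and 12.22 in the controls and 12.74, 12.75 and 13.00 with Aa. The groups were apart at both times, and the log2 change was 0.35 at 24 h (SE 0.123, adjusted p = 0.0372) and 0.84 at 48 h (1.79-fold, adjusted p = 0.000122). The 24 h change was 0.062 under the hybridisation-control scaling (adjusted p = 0.76), and its call was lost in 5 of the 12 fits that left out 1 array, with an adjusted p of up to 0.11, and the 48 h call was kept in each setting tried.

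PSMD1, the companion scaffold, was lower at 48 h. It measured 11.66, 11.69 and 12.05 in the 48 h controls and 11.34, 11.46 and 11.42 with Aa, and 12.07, 12.04 and 12.22 against 11.84, 11.91 and 11.99 at 24 h. The groups did not overlap at either time, and the log2 change was -0.20 at 24 h (adjusted p = 0.18) and -0.39 at 48 h (SE 0.116, adjusted p = 0.0123). PSMD4, the receptor that binds ubiquitin chains, measured 11.64, 11.78 and 11.85 in the 24 h controls and 11.66, 11.59 and 11.52 with Aa, then 11.58, 11.49 and 11.74 in the 48 h controls and 11.88, 12 and 12.23 with Aa. The groups overlapped at 24 h and were apart at 48 h. Its log2 change was -0.17 at 24 h and 0.43 at 48 h (SE 0.116, adjusted p = 0.00717), which became -0.011 under the hybridisation-control scaling. With the mean of its probe sets the 48 h change no longer passed. Other tested probe sets of PSMD4 had 48 h changes of 0.14 and 0.24 (adjusted p = 0.374 and 0.122 by limma over all probe sets).

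Of the 5 ATPases tested, PSMC6 was higher at 24 h and PSMC4 at 48 h. PSMC4 measured 10.32, 10.06 and 10.70 in the 48 h controls and 11.17, 10.90 and 11.61 with Aa at 48 h, and 10.60, 10.47 and 11.05 against 10.80, 10.57 and 10.84 at 24 h. The groups were apart at 48 h and overlapped at 24 h. Its log2 change was 0.03 at 24 h (adjusted p = 0.921) and 0.86 at 48 h (SE 0.219, 1.82-fold, adjusted p = 0.00518), which became 0.42 under the hybridisation-control scaling and did not pass (adjusted p = 0.127). The difference between the times was 0.83 and did not pass (SE 0.310, adjusted p = 0.0813), and with the block it did (adjusted p = 0.00247). PSMC6 measured 12.24, 12.36 and 12.56 in the 24 h controls and 12.73, 12.80 and 12.55 with Aa, so that 1 Aa array lay within the control range. Its 24 h change of 0.31 (SE 0.114, adjusted p = 0.0439) no longer passed in 8 of the 12 fits that left out 1 array, with an adjusted p of up to 0.159, and was 0.024 under the hybridisation-control scaling. At 48 h its change was -0.02, or -0.46 under that scaling (adjusted p = 0.0171). PSMC1, PSMC2 and PSMC3 had changes of 0.28, -0.30 and 0.45 at 48 h and did not pass. They passed with the block (adjusted p = 0.00893, 0.00232 and 0.00147) and also with limma's trend and robust settings, and PSMC2 passed under the hybridisation-control scaling as well (-0.74, adjusted p = 0.000551).

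**Figure D2:**
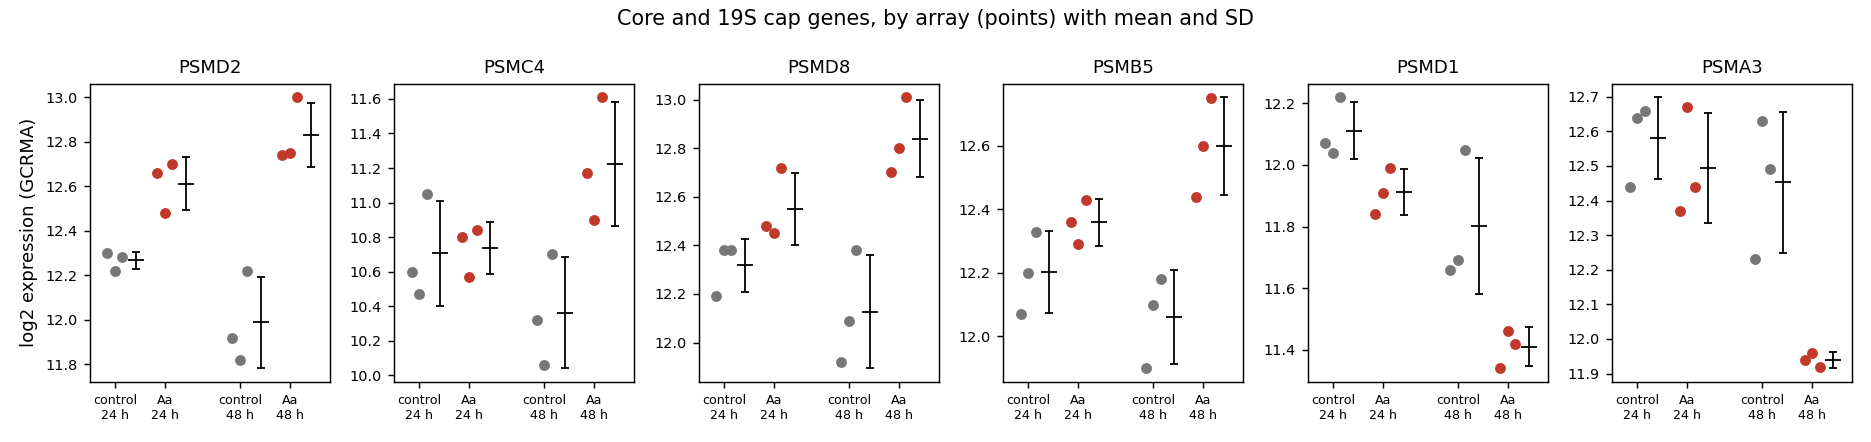
Log2 values (vertical axis) of PSMD2, PSMC4, PSMD8, PSMB5, PSMD1 and PSMA3 on each of the 12 arrays (points), with the mean and SD (n = 3) of each group beside them. PSMB5, PSMC4, PSMD2 and PSMD8 lie above their controls with Aa at 48 h, and PSMD1 and PSMA3 lie below theirs.

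The lid removes ubiquitin from the substrate, and PSMD14 is its deubiquitinase. Of the 6 lid genes tested, 0 passed at 24 h (0 higher and 1 lower at an unadjusted p under 0.05) and 3 were higher at 48 h. Among all tested genes, 49.1% passed at 24 h and 30.6% were higher at 48 h. With the block, 2 were higher and 1 lower at 24 h (PSMD3, PSMD8 and PSMD14), and 3 were higher and 2 lower at 48 h. PSMD8, a lid subunit placed late in assembly, measured 12.19, 12.38 and 12.38 in the 24 h controls, 12.48, 12.45 and 12.72 with Aa at 24 h, 11.92, 12.09 and 12.38 in the 48 h controls and 12.70, 12.80 and 13.01 with Aa at 48 h. Each Aa array lay above each control at both times. The log2 change was 0.23 at 24 h (adjusted p = 0.192) and 0.71 at 48 h (SE 0.139, 1.64-fold, adjusted p = 0.000947). With the block the 24 h change passed (adjusted p = 0.0332), and under the hybridisation-control scaling the 48 h change was 0.27 and did not (adjusted p = 0.144).

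PSMD12 and PSMD3, structural lid subunits, had larger spreads. PSMD12 measured 10.05, 10.43 and 10.87 in the 48 h controls and 10.92, 11.02 and 11.24 with Aa, with a log2 change of 0.61 (SE 0.204, adjusted p = 0.0218). PSMD3 measured 10.30, 9.97 and 10.78 in the 48 h controls and 11.15, 10.73 and 11.25 with Aa, with a change of 0.69 (SE 0.267, adjusted p = 0.0404). The PSMD12 groups were apart and the PSMD3 groups overlapped, and leaving out 1 array ended the call in 3 and 5 of the 12 fits, with an adjusted p of up to 0.0906 and 0.152. Under the hybridisation-control scaling the changes were 0.17 and 0.25 and did not pass (adjusted p = 0.474 and 0.429). At 24 h they were -0.19 and 0.28, and PSMD3 passed there with the block (adjusted p = 0.0445). The deubiquitinase PSMD14 had changes of -0.29 at 24 h and -0.22 at 48 h and did not pass. It passed with the block (adjusted p = 0.0125 and 0.0309) and under the hybridisation-control scaling (-0.57 and -0.66, adjusted p = 0.00264 and 0.000527). PSMD6 and PSMD11 had changes of -0.13 and -0.25 at 48 h without passing, and the block added PSMD11 (adjusted p = 0.0298). Both passed as lower under the hybridisation-control scaling (adjusted p = 0.0023 and 0.00212).

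The promoters of PSMD3 and PSMD12 are shown because both genes were higher at 48 h and both hold the letters TGACNNNGC, the core of the antioxidant response element that NFE2L1 and NFE2L2 bind with small MAF proteins. Each is the 250 bases before the RefSeq gene start (build GRCh38.p14), with the match in capitals. The PSMD3 window is chr17:39980557-39980806 on the plus strand, with its match ending 28 bases before the start, and the PSMD12 window is chr17:67366578-67366827 on the minus strand, with its match 156 bases before the start.
PSMD3: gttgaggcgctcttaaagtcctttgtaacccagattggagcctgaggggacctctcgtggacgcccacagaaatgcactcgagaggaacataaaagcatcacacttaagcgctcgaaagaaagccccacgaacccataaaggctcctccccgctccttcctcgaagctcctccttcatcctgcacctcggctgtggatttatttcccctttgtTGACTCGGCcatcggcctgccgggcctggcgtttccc
PSMD12: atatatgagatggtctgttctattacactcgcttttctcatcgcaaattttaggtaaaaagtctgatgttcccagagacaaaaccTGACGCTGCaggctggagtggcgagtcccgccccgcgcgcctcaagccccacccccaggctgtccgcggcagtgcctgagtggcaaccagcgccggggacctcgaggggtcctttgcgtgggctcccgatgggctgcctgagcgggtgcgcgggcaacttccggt

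The base has assembly chaperones of its own, PSMD5, PSMD9 and PSMD10, which leave before the cap is complete. PSMD5 was higher at both times. It measured 10.71, 10.67 and 10.82 in the 24 h controls, 11, 10.96 and 11.11 with Aa at 24 h, 10.30, 10.59 and 10.45 in the 48 h controls and 10.64, 10.69 and 10.82 with Aa at 48 h. The groups did not overlap, and the log2 change was 0.29 at 24 h (SE 0.103, adjusted p = 0.0361) and 0.27 at 48 h (adjusted p = 0.0379), which became 0.0071 and -0.17 under the hybridisation-control scaling. Leaving out 1 array ended these calls in 4 and 6 of the 12 fits, with an adjusted p of up to 0.11 and 0.139. PSMD9 and PSMD10 had changes of -0.14 and 0.15 at 48 h without passing. The other probe set of PSMD10 was nearly as bright, at 11.08 in the 48 h controls against 11.67. It was higher by 0.35 at 48 h (adjusted p = 0.0462 by limma over all probe sets).

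The 3 immunoproteasome subunits each followed a course of their own. PSMB10, which replaces PSMB7, was lower at 24 h and slightly higher at 48 h, PSMB9, which replaces PSMB6, was lower at 48 h, and PSMB8, which replaces PSMB5, did not pass at either time.

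PSMB10 measured 8.89, 9.13 and 8.99 in the 24 h controls and 8.29, 8.23 and 8.31 with Aa at 24 h, then 8.49, 8.47 and 8.65 in the 48 h controls and 8.81, 8.77 and 8.86 with Aa at 48 h. Aa lay below the controls at 24 h and above them at 48 h, with no overlap. Its log2 change was -0.73 at 24 h (SE 0.0935, 1.65-fold lower, adjusted p = 9.02e-05) and 0.27 at 48 h (1.21-fold higher, adjusted p = 0.0239), and the difference between the times was 1.00 (SE 0.132, adjusted p = 0.00158). The controls themselves had a change of -0.46 from 24 h to 48 h (adjusted p = 0.052). The 48 h rise no longer passed without Aa replicate 1 or 3 or control replicate 1 or 2 at 48 h (adjusted p up to 0.0767) and turned to -0.17 under the hybridisation-control scaling.

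PSMB9 measured 8.66, 9.02 and 8.59 in the 24 h controls, 8.38, 8.68 and 7.37 with Aa at 24 h, 8.46, 8.62 and 8.65 in the 48 h controls and 7.86, 7.98 and 7.35 with Aa at 48 h. The groups overlapped at 24 h, where Aa replicate 3 was lowest, and were apart at 48 h. The log2 change was -0.61 at 24 h (SE 0.292, adjusted p = 0.105, or 0.0383 with the block, 0.0172 under the hybridisation-control scaling and 0.0287 without Aa replicate 2 at 24 h) and -0.85 at 48 h (1.8-fold lower, adjusted p = 0.0248). Over the fits that left out 1 array the 48 h change ran from -0.98 to -0.66, and it no longer passed without Aa replicate 3 or control replicate 2 or 3 at 48 h (adjusted p up to 0.0975).

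PSMB8 measured 10.27, 10.43 and 10.35 in the 24 h controls, 10.76, 10.54 and 10.35 with Aa at 24 h, 10.61, 10.74 and 10.58 in the 48 h controls and 10.87, 10.93 and 10.88 with Aa at 48 h. The groups overlapped at 24 h and were apart at 48 h. Its log2 change was 0.20 at 24 h (adjusted p = 0.169) and 0.25 at 48 h (adjusted p = 0.0688, or 0.0453 with the block). The 48 h change also passed with quantile normalisation (0.31, adjusted p = 0.0336) and without Aa replicate 1 or 3 at 24 h (adjusted p = 0.0427 and 0.0444), and the 24 h change passed without Aa replicate 3 at 24 h (0.30, adjusted p = 0.0490). Under the hybridisation-control scaling the changes were -0.086 and -0.19.

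PSMB9 lies head to head with TAP1, which codes for a chain of the transporter that carries proteasome products to MHC class I, and their RefSeq starts are 488 bases apart. TAP1 measured 8.91, 9.04 and 8.87 in the 24 h controls, 10.42, 10.31 and 10.05 with Aa at 24 h, 9.05, 8.76 and 8.86 in the 48 h controls and 10.28, 10.56 and 10.61 with Aa at 48 h. Each Aa array lay more than 1 unit above each control at the same time, and the rise was 2.5-fold at 24 h (adjusted p = 1.57e-05) and 3.03-fold at 48 h (adjusted p = 2.06e-06). TAP2, the partner chain, was 3.78-fold and 5.86-fold higher (adjusted p = 6.29e-06 and 4.48e-07). The neighbours PSMB9 and TAP1 thus had opposite changes at 48 h, and the difference between the genes was not tested.

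**Figure D3:**
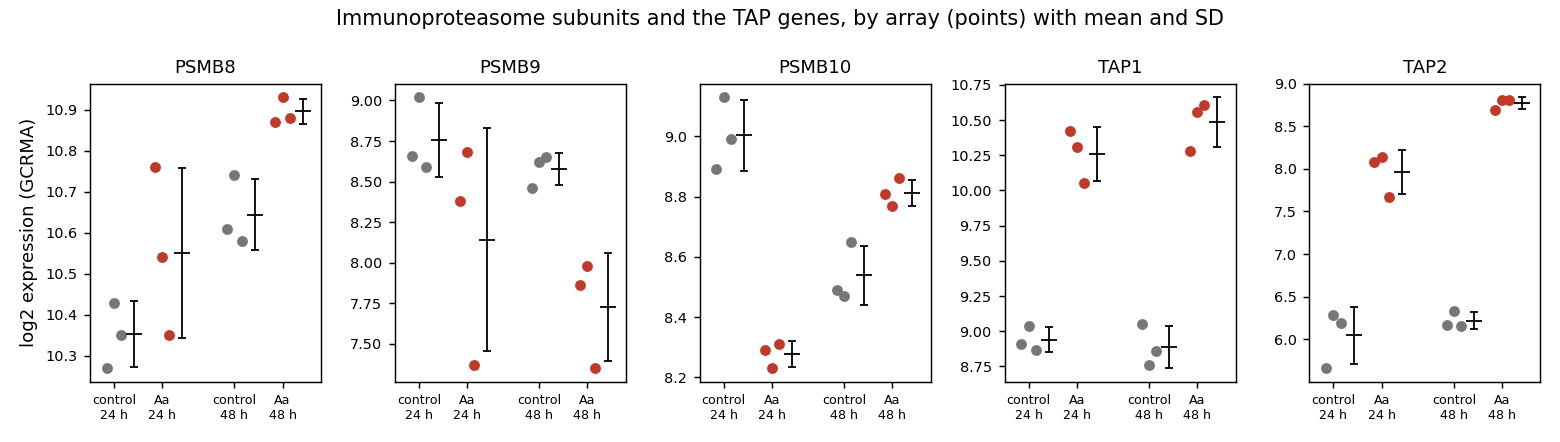
Log2 values (vertical axis) of the immunoproteasome subunits PSMB8, PSMB9 and PSMB10 and of TAP1 and TAP2 on each of the 12 arrays (points, grey for control and red for Aa), with the mean and SD (n = 3) of each group beside them. With Aa, PSMB10 lies below its controls at 24 h and above them at 48 h, PSMB9 lies below its controls at 48 h, and TAP1 and TAP2 lie above theirs at both times.

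The promoters of PSMB9, TAP1 and PSMB10 are shown because these genes, all known as interferon-responsive, moved in different directions. Each is the 250 bases before the RefSeq gene start (build GRCh38.p14). The PSMB9 window is chr6:32853942-32854191 on the plus strand, the TAP1 window chr6:32853705-32853954 on the minus strand, and the PSMB10 window chr16:67936851-67937100 on the minus strand. Capitals mark the antioxidant core TGACNNNGC on either strand in PSMB9 and an interferon element (GAAA, any 2 bases, GAAA) on either strand in TAP1 and PSMB10. The TAP1 stretch holds 2 overlapping matches, the nearer 118 bases before the start, and the PSMB10 match lies 11 bases before the start. The element was not found in the PSMB9 window, which ends short of the TAP1 matches in the 488 bases between the 2 starts. The part of these letters in the directions of the genes was not tested.
PSMB9: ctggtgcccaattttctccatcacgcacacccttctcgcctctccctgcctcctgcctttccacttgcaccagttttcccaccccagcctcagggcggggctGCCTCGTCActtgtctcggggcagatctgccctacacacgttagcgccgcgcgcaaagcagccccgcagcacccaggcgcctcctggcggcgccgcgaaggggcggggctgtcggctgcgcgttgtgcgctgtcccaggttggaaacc
TAP1: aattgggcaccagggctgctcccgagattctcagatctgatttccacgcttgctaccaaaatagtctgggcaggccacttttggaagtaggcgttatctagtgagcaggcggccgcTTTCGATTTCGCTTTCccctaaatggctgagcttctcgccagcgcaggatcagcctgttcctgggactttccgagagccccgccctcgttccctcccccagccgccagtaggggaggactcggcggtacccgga
PSMB10: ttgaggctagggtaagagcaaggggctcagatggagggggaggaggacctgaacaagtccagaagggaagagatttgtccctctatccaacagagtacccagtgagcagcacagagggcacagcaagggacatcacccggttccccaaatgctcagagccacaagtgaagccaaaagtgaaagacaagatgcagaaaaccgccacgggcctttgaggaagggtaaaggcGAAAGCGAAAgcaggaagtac

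The alternative caps open the core without ubiquitin recognition. None of the 3 tested, PSME1, PSME3 and PSME4, passed at 24 h or 48 h with limma, and at an unadjusted p under 0.05 there were 0 at 24 h and 1 lower at 48 h. PSME1, a chain of the interferon-inducible cap, measured 12.06, 11.81 and 11.80 in the 24 h controls and 11.78, 11.51 and 11.68 with Aa, then 12.08, 11.86 and 12.03 in the 48 h controls and 11.82, 11.63 and 11.73 with Aa. The groups were apart at both times, and the change was -0.23 at 24 h (adjusted p = 0.115, or 0.0169 with the block) and -0.26 at 48 h (adjusted p = 0.0615, or 0.00715 with the block), and both passed under the hybridisation-control scaling too (adjusted p = 0.0223 and 0.00247). Its partner PSME2, on a probe set that also names MIR7703, averaged 12.56 in the 24 h controls and 12.71 with Aa (adjusted p = 0.271 over all probe sets), and 12.31 and 13.26 at 48 h (adjusted p = 2.6e-05). PSME3, the nuclear cap, had changes of -0.32 and 0.17, the former passing with the block (adjusted p = 0.0192) and under the hybridisation-control scaling (-0.60, adjusted p = 0.0280). PSME4 had changes of -0.09 and -0.07, which passed as lower under that scaling (-0.38 and -0.51, adjusted p = 0.0379 and 0.00558). By limma over all probe sets, dimmer ones of PSME4 went both ways at 24 h, by 0.87 and -0.66 (adjusted p = 0.000738 and 0.0419). A dimmer one of PSME3 rose by 0.81 at 48 h (adjusted p = 0.0037), while others of PSME3 had 0.17 and 0.15 and did not pass.

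PSMF1, which binds the core and inhibits it in vitro, had log2 changes of 0.33 at 24 h (95% interval -0.13 to 0.80) and 0.37 at 48 h (95% interval -0.10 to 0.83). It passed with the block (adjusted p = 0.00352 and 0.0014). A probe set of PSMF1 about as bright in the controls (10.42 at 24 h and 10.66 at 48 h, against 10.47 and 10.28) went the other way, with changes of -0.16 (adjusted p = 0.349) and -0.79 (adjusted p = 0.000391, over all probe sets), so the direction of PSMF1 depends on the probe set.

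The chaperones that assemble the core held the largest changes of all 41 genes in both directions. PSMG1 and PSMG2 form a pair that builds the alpha ring. PSMG1 measured 10.46, 10.50 and 10.73 in the 24 h controls and 9.53, 9.86 and 9.72 with Aa, then 10.22, 10.45 and 10.49 in the 48 h controls and 9.23, 9.04 and 8.84 with Aa. Each Aa array lay below each control at both times. The log2 change was -0.85 at 24 h (SE 0.137, 1.81-fold lower, adjusted p = 0.000411) and -1.35 at 48 h (2.54-fold lower, adjusted p = 8.88e-06), and both calls were kept in each setting tried.

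PSMG2 measured 12.27, 12.20 and 12.17 in the 24 h controls and 12.34, 12.35 and 12.48 with Aa, then 12.27, 12.23 and 12.25 in the 48 h controls and 11.73, 11.63 and 11.75 with Aa. Aa lay above the controls at 24 h and below them at 48 h, with no overlap. Its log2 change was 0.17 at 24 h (SE 0.0837, adjusted p = 0.11) and -0.55 at 48 h (1.46-fold lower, adjusted p = 0.000169), and the difference between the times was -0.72 (SE 0.118, adjusted p = 0.00395). The 24 h change passed with no filter and with limma's trend and robust settings (adjusted p down to 0.0216).

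PSMG3 and PSMG4 form the other pair of core chaperones. PSMG3 measured 9.49, 9.40 and 9.58 in the 24 h controls and 10.18, 9.83 and 10.35 with Aa, then 9.36, 9.33 and 9.22 in the 48 h controls and 10.19, 10.04 and 10.30 with Aa. Aa lay above the controls at both times, by 0.63 at 24 h (SE 0.134, 1.55-fold, adjusted p = 0.00251) and 0.87 at 48 h (1.83-fold, adjusted p = 0.000175). Under the hybridisation-control scaling the 24 h rise no longer passed (adjusted p = 0.121). PSMG4 measured 10.44, 10.56 and 10.51 in the 48 h controls and 10.22, 10.19 and 10.16 with Aa, and 10.37, 10.37 and 10.61 against 10.33, 10.51 and 10.54 at 24 h. It was apart at 48 h only, with a change of -0.31 (SE 0.0999, adjusted p = 0.0182), which no longer passed without control replicate 2 at 48 h (adjusted p = 0.058), with quantile normalisation (adjusted p = 0.0513) or with the mean of its probe sets (-0.052, adjusted p = 0.516). At 24 h its change was 0.01. POMP, the maturation factor of the core, which the symbol rule does not take, had changes of 0.03 and 0.22 and did not pass.

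**Figure D4:**
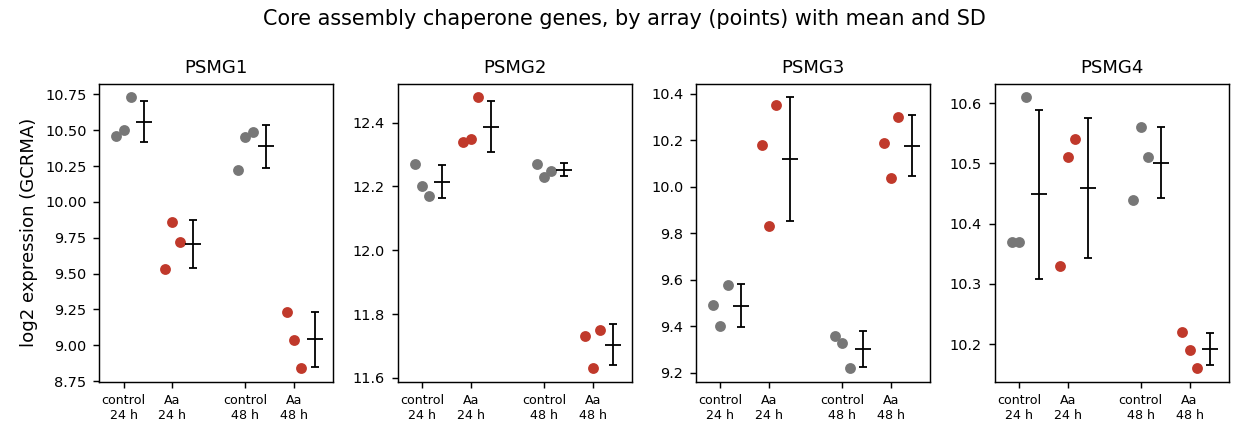
Log2 values of the core assembly chaperones PSMG1, PSMG2, PSMG3 and PSMG4 on each of the 12 arrays (points), with the mean and SD (n = 3) of each group. PSMG1 is lower and PSMG3 higher with Aa at both times, and PSMG2 and PSMG4 are lower at 48 h.

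In the controls alone, none of the 41 genes differed between 48 h and 24 h by limma, against 0.635% of all tested genes, and at an unadjusted p under 0.05 there were 1 higher and 11 lower. Their changes were negative for 37 of the 41, with a median of -0.19. The change with Aa at 48 h is measured against these 48 h controls.

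Probe sets of the same gene did not always move together, and the genes named here were chosen after their values were seen. For PSMD11 the probe set in use had log2 changes of -0.12 and -0.25, while a dimmer one rose from 7.32 to 9.89 at 24 h, by 2.57 (adjusted p = 2.03e-07), and by 2.33 at 48 h (adjusted p = 2.29e-07). A dimmer probe set of PSMD9 rose by 1.97 and 2.06 (adjusted p = 0.000363 and 0.000155), against -0.05 and -0.14 on the one in use. One of PSMA5 rose by 2.23 at 24 h (adjusted p = 0.000217) with -0.04 at 48 h. Another of PSMD12 rose at both times, by 1.04 and 0.85 (adjusted p = 2.26e-05 and 5.13e-05), where the one in use had -0.19 and 0.61. Dimmer probe sets of PSMC2 rose by 1.17 and 0.98 at 24 h (adjusted p = 0.000136 and 0.000152). At 48 h they had 0.29 and -0.21 and did not pass. A dimmer one of PSMB2 had changes of -0.58 and -0.71 (adjusted p = 0.00208 and 0.00035). A further one of PSMB2 had 0.36 at 24 h (adjusted p = 0.308) and 1.11 at 48 h (adjusted p = 0.00448). PSMA6 shares both of its probe sets with PRORP, and 1 of them had changes of 0.03 and 0.10 while the other fell by 2.59 and 2.35 (adjusted p = 2.1e-06 and 2.3e-06). Which transcripts these dimmer probe sets measure was not tested, and the adjusted p-values in this paragraph are from limma over all probe sets.

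**Figure D5:**
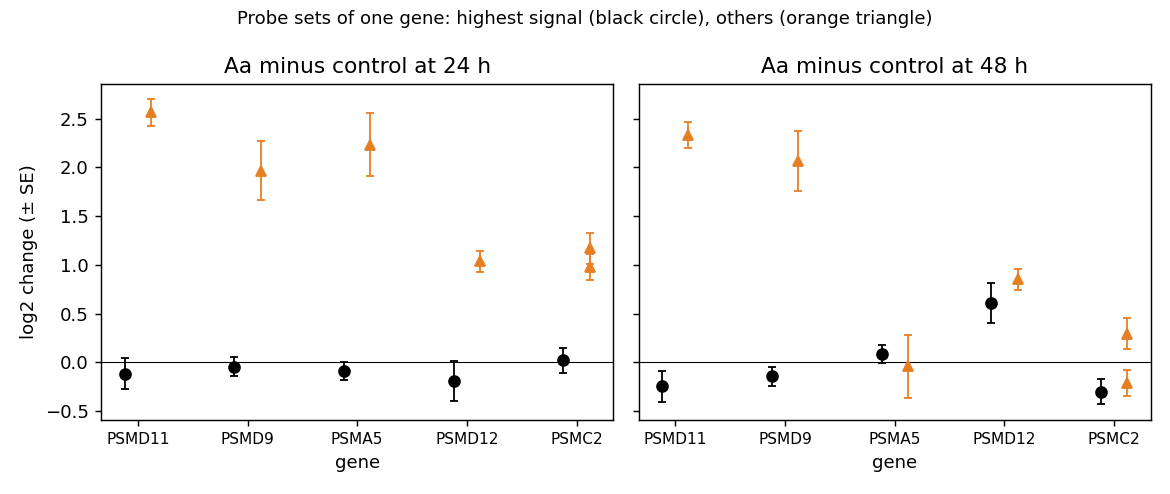
Log2 change (Aa minus control, vertical axis) with its standard error at 24 h and 48 h for probe sets of PSMD11, PSMD9, PSMA5, PSMD12 and PSMC2, with the probe set in use as a black circle and the others as orange triangles. The dimmer probe sets of PSMD11 and PSMD9 lie far above those in use at both times, and that of PSMA5 at 24 h alone.

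Of the 8 genes that share only the letters, 5 were over the floor. Of these, 1 was higher at 24 h, and 2 were higher and 1 lower at 48 h. Among all tested genes, 26.3% were higher at 24 h, and 30.6% were higher and 33.9% lower at 48 h. PSMC3IP, a meiotic recombination factor named for its binding to PSMC3, had the largest change of the 46 tested genes. It measured 8.80, 8.94 and 9.11 in the 24 h controls and 10.71, 10.78 and 10.75 with Aa, then 8.35, 8.59 and 8.94 in the 48 h controls and 11.39, 11.45 and 11.75 with Aa. The groups were far apart at both times. The rise was 3.48-fold at 24 h (adjusted p = 5.05e-06) and 7.48-fold at 48 h (adjusted p = 9.83e-08), and the log2 change differed between the times by 1.11 (SE 0.219, adjusted p = 0.00827).

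The antisense transcript PSMA3-AS1 measured 8.29, 8.25 and 7.76 in the 48 h controls and 7.26, 7.14 and 6.81 with Aa, and 8, 7.90 and 7.89 against 7.71, 7.77 and 7.31 at 24 h. The groups were apart at both times. Its change was -0.33 at 24 h (adjusted p = 0.141, or 0.0186 with the block) and -1.03 at 48 h (2.04-fold lower, adjusted p = 0.000394). PSME3IP1, which binds PSME3, was higher by 0.38 at 48 h (adjusted p = 0.0104), which turned to -0.060 under the hybridisation-control scaling. Its other probe sets had changes of -0.033, -0.071 and -0.085 at 48 h (adjusted p = 0.804, 0.591 and 0.468 by limma over all probe sets). With the mean of its probe sets the 48 h change of PSME3IP1 no longer passed.

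Across the promoters, RefSeq windows of 300 bases around the start were found for 36 of the 42 genes (43 windows), and motifs were counted on both strands. TGACNNNGC was in 13 of the 43 (30.2%), against 13.3% of 35116 windows of all genes, CCAAT, the NF-Y box, in 17 (39.5%) against 34.6%, and the interferon element in 6 (14%) against 3.57%. By outcome at 48 h, TGACNNNGC was held by 4 of the 8 higher genes with a window (PSMC4, PSMD12, PSMD3 and PSMD5), by 4 of the 6 lower genes (PSMB9, PSMD1, PSMG1 and PSMG2) and by 5 of the 21 that did not pass. Genes of both directions thus hold these letters, which describe sequence and not binding.

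Of 8 transcriptional regulators of proteasome genes tested, 4 were higher and 1 lower at 24 h, and 3 were higher and 3 lower at 48 h, against 26.3% higher and 22.8% lower of all genes at 24 h and 30.6% and 33.9% at 48 h. NFE2L1, the regulator that restores subunit transcription when the proteasome is inhibited, had log2 changes of 0.03 and -0.32 (adjusted p = 0.0483 at 48 h). NFE2L2, the oxidant-responsive relative, was higher by 0.93 at 24 h and had a change of -0.10 at 48 h. The small MAF partners rose at both times, MAFF by 0.64 and 2.59 and MAFG by 1.21 and 1.92. NFYA, a CCAAT-binding subunit, fell by 1.00 at 24 h.

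In the interferon and antigen presentation list, 5 of 9 tested genes were higher and 2 lower at 24 h, and 3 were higher and 1 lower at 48 h, beside the same shares of all genes, which the 48 h count of higher genes is near. Log2 changes in the list ran from -0.57 to 2.31 at 24 h and from -1.74 to 2.55 at 48 h, so its genes did not move together. IRF1, which drives immunoproteasome genes, rose 4.29-fold and 3.69-fold. NLRC5, the MHC class I transactivator, rose 4.94-fold at 24 h (adjusted p = 0.000284) and was at 1.38-fold at 48 h (adjusted p = 0.27).

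Among genes that deliver substrates, 3 of 6 shuttle receptors were higher and 1 lower at 24 h. At 48 h 3 were higher and 2 lower. Of all tested genes, 26.3% were higher and 22.8% lower at 24 h, and 30.6% and 33.9% at 48 h. ZFAND2A, an arsenite- and heat-inducible protein that binds the 19S cap, rose 4.68-fold and 7.28-fold. The ubiquilins UBQLN2 and UBQLN4 were higher by 1.14 and 0.75 at 24 h and by 0.60 and 0.94 at 48 h, and ZFAND5, a proteasome activator, fell by 0.39 and 0.79.

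The p97 unfoldase extracts substrates ahead of the proteasome, and 3 of its 7 genes were higher and 2 lower at 24 h. At 48 h 4 were higher and 2 lower. The shares of all tested genes were 26.3% higher and 22.8% lower at 24 h, and 30.6% and 33.9% at 48 h. VCP, the unfoldase itself, fell by 0.57 and 0.41, its cofactor NPLOC4 rose by 0.79 and 0.74, and FAF1, a ubiquitin-binding cofactor, was 5.09-fold and 9.43-fold lower.

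Of 10 associated factors, 1 was higher at 24 h, and 2 were higher and 3 lower at 48 h. For all tested genes the shares were 26.3% higher and 22.8% lower at 24 h, and 30.6% and 33.9% at 48 h. ADRM1, the ubiquitin receptor that docks on PSMD1, was higher by 0.81 at 48 h, and AKIRIN2, which carries proteasomes into the nucleus, by 0.51 and 0.64. ECPAS, a proteasome adaptor, was lower by 0.45 at 48 h. Of the 3 ubiquitin supply and activation genes tested, 0 passed at 24 h (0 at an unadjusted p under 0.05), and at 48 h UBA1, the main activating enzyme, was higher by 0.69 and UBA6, its alternative, lower by 0.45.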

How the data were processed

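The authors deposited log2 expression values, for which the submitters' processing notes name GCRMA. Its version and the set of arrays it was run on were not given in the sources used here. GCRMA gives the arrays nearly the same distribution, so a shift of the whole transcriptome cannot appear. Genes over the floor of log2 4 on at least 3 of 12 arrays were fitted with limma 3.58.1 (R 4.3.3) as 4 group means over all 12 arrays (8 residual and 2.79 prior degrees of freedom), and p-values were adjusted by Benjamini-Hochberg over 11184 genes, with a threshold of 0.05. The median standard error was 0.161 within a time and 0.227 between times, and the number of arrays limits this precision. Fold values are 2 to the power of the log2 change. The fit was tested on simulated data. Promoter sequences were from RefSeq (GRCh38.p14).

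The members and gene lists were chosen with earlier results of these data known. Each catalytic and immunoproteasome gene, each gene with a called difference between times, and the called gene with the largest rise and fall in each other class were named with their values; further members were added after their values were seen. Replicate numbers were read as pairs from the data: deviations from group means correlated at 0.279 to 0.577 in 18 same-numbered pairs and at -0.371 to -0.0286 in 36 others. The alternatives were the replicate block, 3 other scalings, other filters, the mean of a gene's probe sets, limma with trend and robust settings, the arrays of 1 time only, and leaving out each array.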

Additional observations from a re-analysis of the deposited data

Results flagged for a closer look

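For 4 genes the change with Aa differed between the times by limma's test of the difference itself. PSMB10, the immunoproteasome subunit, went from lower at 24 h to higher at 48 h, a difference of 1.00 on the log2 scale (SE 0.132), which passed in each fit that left out 1 array, with values of 0.94 to 1.06 and an adjusted p of up to 0.00559. PSMG2, the alpha-ring chaperone, went from 0.17 to -0.55, a difference of -0.72. PSMD4, the ubiquitin receptor of the cap, went from -0.17 to 0.43, a difference of 0.60 (SE 0.164, adjusted p = 0.0292), which no longer passed in 7 of the 12 fits that left out 1 array (adjusted p up to 0.0716). The PSMD4 difference also no longer passed under the hybridisation-control scaling or with the mean of its probe sets. PSMC3IP, which is no subunit, rose further at 48 h, by a difference of 1.11. With the replicate block, PSMA3, PSMA7, PSMB5, PSMC2, PSMC3, PSMC4, PSMD12, PSMD2, PSMD8, PSME3 and PSMA3-AS1 also differed between the times.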

How the results depend on the processing

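Of 32 gene results with a call (a gene's change at 1 time, or 1 of the 4 differences between times), 13 kept call and direction in all settings, and of 64 without a call 16 had none in any. Scaling to the hybridisation controls gave 0 genes higher and 15 lower at 24 h and 2 higher and 19 lower at 48 h. Of all 11184 tested genes, it left 34.5% lower at 24 h and 52.7% at 48 h, with 1668 and 1808 higher. It gave 4 core genes lower at 24 h, and 0 higher and 6 lower at 48 h. This scaling also gave 0 cap genes higher and 4 lower at 24 h and 1 higher and 6 lower at 48 h. It reversed the 48 h changes of PSMA2 (-0.36), PSMA5 (-0.35), PSMA7 (-0.075), PSMB10 (-0.17), PSMB2 (-0.43), PSMB6 (-0.086), PSMB7 (-0.43), PSMD4 (-0.011), PSMD5 (-0.17) and PSME3IP1 (-0.060), and the cause was not tested. The replicate block, a pairing read from the data, gave 9 higher and 6 lower at 24 h, 19 higher and 10 lower at 48 h and 13 differences between times, with 1 core gene higher at 24 h and 6 at 48 h, 5 cap genes higher and 1 lower at 24 h and 4 lower at 48 h, and it ended no call. The mean of all probe sets gave 8 genes higher at 24 h, 5 differences between times, 1 core gene higher at 24 h and 0 lower at 48 h, and 5 cap genes higher and 1 lower at 24 h. It reversed PSMA5 at 24 h (1.07), PSMD12 at 24 h (0.42), PSMD11 (1.22 and 1.04) and PSMD9 (0.96 at both times), whose probe sets differ.

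Cap genes lower at 24 h numbered 1 with no filter, with a floor of log2 6 and with limma's trend and robust settings. The cap genes lower at 48 h numbered 2 with equal array medians and with trend and robust settings, which also gave 5 differences between times, and 1 cap gene was higher at 24 h in a fit to the arrays of that time. Leaving out each array gave 1 to 4 genes higher and 2 to 3 lower at 24 h, 8 to 13 higher and 5 to 9 lower at 48 h, 3 to 4 core genes higher and 1 lower at 48 h with 0 at 24 h, 0 to 2 cap genes higher and 0 to 1 lower at 24 h, 4 to 8 higher and 1 to 4 lower at 48 h, and 2 to 8 differences between times. The number of arrays limits small changes.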
